A study of Mus musculus with 12 samples.

Results

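MOF summits at places where 2 protein-coding genes lie side by side are described here. MOF, the product of Kat8, is the acetyltransferase that places the H4K16ac mark on histone H4. The summits come from chromatin immunoprecipitation sequencing (ChIP-seq) of MOF in haematopoietic stem cells (HSC) of wild-type mice. Of the 1850 summits that the HSC list holds on chromosomes 1 to 19 and X, 229 (12.4%) lay within 1 kb of an annotated start or end of at least 2 different protein-coding genes, and these are called adjacent-gene summits below. They touched 447 genes at 220 loci. Of all 21627 protein-coding genes on these chromosomes, 1346 (6.22%) had any HSC summit within 1 kb of a boundary. Of the same 21627, 7047 have a boundary within 2 kb of another gene's. The number of summits alone therefore shows no preference for adjacent genes. Exactly 2 genes lay within reach of 225 of the summits, and 3 genes within reach of the other 4. A further 916 summits lay within 1 kb of a single protein-coding gene, and 705 within 1 kb of none.

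HSC were sorted from the bone marrow of C57BL/6 mice as lineage-depleted, Sca-1-positive, Kit-positive cells without CD34 and Flt3, with 15000 cells named in the labels' protocols, and MOF was precipitated with an antibody against the protein. Besides the wild-type HSC library, a MOF library of HSC from mice labelled Mof -/+, MOF libraries of 30000 megakaryocyte-erythroid progenitors (MEP) of both genotypes, and a GATA1 library of HPC7 were used. HPC7 is a mouse blood progenitor line grown with stem cell factor, labelled wild type and taken at passage 3. Each of these 5 groups is 1 library. Marrow was pooled over the long bones, hip bones and vertebrae. How many animals were used, how old they were and how the Mof allele was made was not given in the labels. Peak lists hold no expression, so the sorted cell types could not be checked against marker RNA, and sequencing depth is unknown. No difference between libraries has a replicate check, so shares are given with 95% Wilson intervals and differences between shares with Newcombe intervals. Both cover counting error only, and no p-value is given.

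Genes that lie head to head, with their starts close together and their bodies running apart, share what is called a bidirectional or divergent promoter. Such promoters are common in mammals, mostly lie in CpG islands (stretches rich in the dinucleotide CG, kept free of methylation), and often serve housekeeping genes of DNA repair, RNA processing and mitochondria. MOF acts in the MSL and NSL complexes, and NSL is known for binding the promoters of housekeeping genes.

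The promoter windows of the 3 highest-valued divergent loci are printed here, because they show what DNA lies under these summits. Each is the RefSeq window (GRCm38.p6, the same build as mm10) from 250 bases before to 50 bases after an annotated start, written 5′ to 3′ on the gene's own strand. Capitals mark matches on either strand to the 7 short motifs whose counts are given further below. The windows are chr16:18248645-18248944 on the minus strand for Ranbp1, chr16:18248633-18248932 on the plus strand for Trmt2a, chr7:19023490-19023789 on the minus strand for Foxa3, chr7:19024127-19024426 on the plus strand for Sympk, chr4:41569489-41569788 on the minus strand for Fam219a and chr4:41569544-41569843 on the plus strand for Dnaic1.
Ranbp1: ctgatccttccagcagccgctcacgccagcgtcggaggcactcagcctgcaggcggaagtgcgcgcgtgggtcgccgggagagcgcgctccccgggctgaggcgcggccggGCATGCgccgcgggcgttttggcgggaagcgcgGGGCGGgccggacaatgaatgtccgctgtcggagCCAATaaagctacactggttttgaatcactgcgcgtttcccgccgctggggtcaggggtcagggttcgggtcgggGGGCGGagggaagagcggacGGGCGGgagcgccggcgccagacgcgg
Trmt2a: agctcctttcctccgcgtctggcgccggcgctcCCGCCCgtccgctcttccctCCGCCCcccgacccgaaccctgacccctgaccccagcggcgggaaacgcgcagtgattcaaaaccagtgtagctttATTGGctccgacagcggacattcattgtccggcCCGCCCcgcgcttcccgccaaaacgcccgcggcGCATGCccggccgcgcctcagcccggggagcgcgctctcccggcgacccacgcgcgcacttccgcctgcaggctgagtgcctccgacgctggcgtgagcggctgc
Foxa3: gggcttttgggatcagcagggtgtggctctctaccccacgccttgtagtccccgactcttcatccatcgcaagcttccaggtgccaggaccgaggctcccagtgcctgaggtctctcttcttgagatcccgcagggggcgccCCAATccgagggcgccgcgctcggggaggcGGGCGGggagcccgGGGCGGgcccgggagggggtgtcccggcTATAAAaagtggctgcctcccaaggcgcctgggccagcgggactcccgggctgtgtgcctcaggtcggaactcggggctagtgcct
Sympk: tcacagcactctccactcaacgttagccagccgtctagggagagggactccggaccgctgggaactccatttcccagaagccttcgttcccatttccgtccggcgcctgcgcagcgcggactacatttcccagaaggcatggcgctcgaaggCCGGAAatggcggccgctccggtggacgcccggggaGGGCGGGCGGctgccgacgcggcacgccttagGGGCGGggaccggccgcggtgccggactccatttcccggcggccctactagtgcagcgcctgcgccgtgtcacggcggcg
Fam219a: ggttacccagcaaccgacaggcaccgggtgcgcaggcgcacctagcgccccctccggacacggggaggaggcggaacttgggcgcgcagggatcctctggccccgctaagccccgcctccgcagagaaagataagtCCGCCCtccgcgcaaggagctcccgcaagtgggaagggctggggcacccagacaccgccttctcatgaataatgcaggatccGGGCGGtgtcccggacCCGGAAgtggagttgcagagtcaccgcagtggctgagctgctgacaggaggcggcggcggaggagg
Dnaic1: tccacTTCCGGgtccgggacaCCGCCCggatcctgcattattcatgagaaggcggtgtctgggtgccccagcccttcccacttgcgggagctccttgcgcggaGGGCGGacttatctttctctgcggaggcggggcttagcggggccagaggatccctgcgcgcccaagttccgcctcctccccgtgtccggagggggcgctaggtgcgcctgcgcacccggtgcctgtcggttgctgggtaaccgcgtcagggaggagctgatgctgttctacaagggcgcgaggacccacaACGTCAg

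The window's start lies inside the outermost annotated start by 36 bp for Trmt2a, 69 bp for Fam219a and 147 bp for Dnaic1. The windows of Ranbp1 and Trmt2a cover nearly the same DNA read from opposite strands, so one stretch is the promoter of both genes. The MOF summit at position 18248866 of chromosome 16 fell on base 79 of the Ranbp1 window and on base 234 of the Trmt2a window. Both windows hold 3 GC boxes, 1 CCAAT box and 1 NRF1 core, since they share these bases, and 72% of the bases are G or C. The starts of Foxa3 and Sympk are 838 bp apart, so their windows do not overlap, and the summit at 19024242 of chromosome 7 fell on base 116 of the Sympk window and outside the Foxa3 window. The Foxa3 window holds 2 GC boxes, 1 CCAAT box and a TATA motif, and the Sympk window holds 3 GC boxes and an ETS core. The window's ratio of observed to expected CpG was 0.619 at Foxa3 and 1.04 at Sympk. At Fam219a and Dnaic1 the outermost annotated starts are 40 bp apart, and the summit at 41569621 of chromosome 4 fell on base 168 of the Fam219a window and base 78 of the Dnaic1 window.

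The next question was which arrangement of neighbouring genes carries these summits. Of the 229, 150 (65.5%) had the annotated starts of at least 2 genes within 1 kb, 36 (15.7%) had 1 start and another gene's end, and 1 had gene ends only. That one lay 386 and 553 bp from the ends of Uba7, an activating enzyme for the ubiquitin-like protein ISG15, and Inka1 (chromosome 9, position 107983670, −log10 value 5.25). The strand of at least 1 gene is not in the promoter table for the remaining 42. Where a start and an end were both within reach, the start was the nearer boundary at 32 of the 36 summits. Over all 229, the nearest boundary was a start at 197 (86.0%), an end at 5 (2.18%), and without strand at 27. Single-gene summits had only a start in reach at 723 of 916 (78.9%) and only an end at 27 (2.95%).

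All close gene pairs of the genome give the background for this. There are 4809 pairs of protein-coding genes on these chromosomes with a boundary of each within 2 kb, and 231 of them (4.80%, 4.23 to 5.44) had a summit within 1 kb of both genes. The share depended on which boundaries met. Of 1048 pairs whose nearest boundaries are both starts, 149 had a summit (14.2%, 12.2 to 16.5). Of 975 pairs with a start next to an end, 39 had one (4.0%, 2.94 to 5.42). Of 1105 pairs with 2 ends next to each other, 2 had one (0.181%, 0.0496 to 0.658). Pairs of starts thus exceeded pairs of ends by 14.0 percentage points (interval 12 to 16.3) and start-end pairs by 10.2 (7.78 to 12.7), and start-end pairs exceeded pairs of ends by 3.82 (2.66 to 5.25). A start pair has 2 starts in reach of a summit and a start-end pair has 1, so these differences are per pair and not per start. The pairs without strand for both genes had a summit in 41 of 1681 cases (2.44%).

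The order was the same when only pairs spaced by up to 500 bp were taken. There the shares were 128 of 814 for starts (15.7%), 20 of 324 for start-end pairs (6.17%) and 2 of 540 for ends (0.370%). The difference between starts and ends was then 15.4 percentage points (12.8 to 18). By spacing, the share of start pairs was 13.2% up to 100 bp, 18.3% from 101 to 250 bp, 18.3% from 251 to 500 bp, 14.8% from 501 to 1000 bp and 4.76% from 1001 to 1500 bp, with intervals that overlap up to 1000 bp. None of the 49 start pairs spaced by 1501 to 2000 bp had a summit, which allows a share of up to 6.12%. The stretch that lies within 1 kb of both boundaries narrows as the spacing grows, so the fall beyond 1 kb cannot be told apart from that narrowing. The 2 pairs of ends with a summit were Uba7 with Inka1, and Esrra with Trmt112. At the latter the summit lay 118 bp from the start of Prdx5, a peroxidase gene next to them. It also lay 290 bp from the start of Trmt112 itself, so it is not a summit at ends alone.

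**Figure D1:**
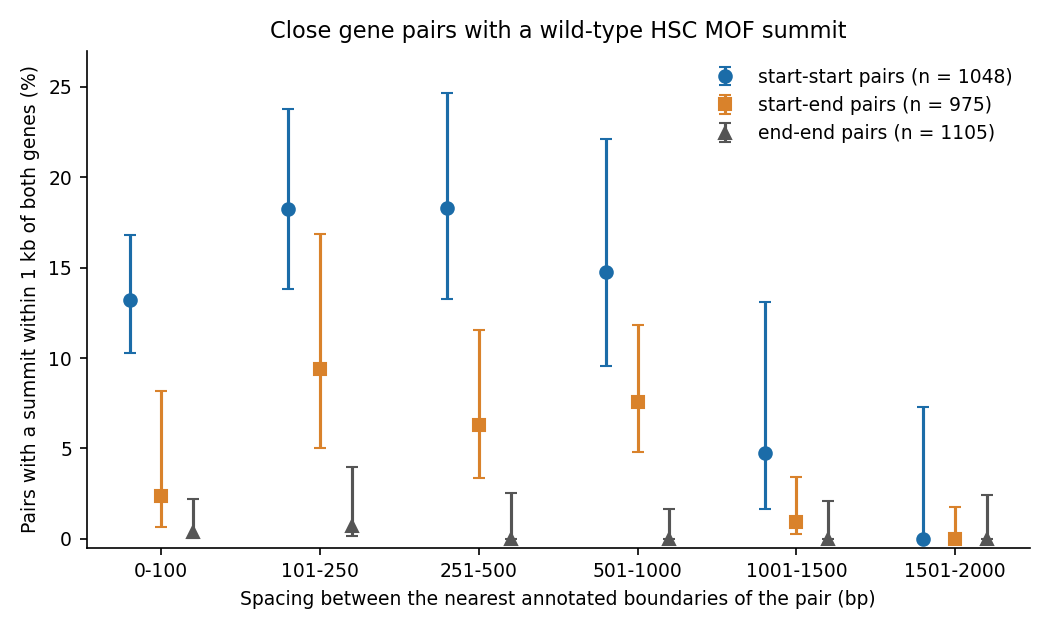
Share of close gene pairs (vertical axis, percent) with a wild-type HSC MOF summit within 1 kb of both genes, by the spacing of their nearest boundaries (horizontal axis, bp) and by whether starts or ends meet, with bars for 95% Wilson intervals. Pairs of starts lie at 13.2 to 18.3% up to 1000 bp, start-end pairs at 2.35 to 9.38%, and pairs of ends at or below 0.719%.

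Head-to-head pairs whose bodies run apart and pairs whose first stretches overlap did not differ beyond counting error in how often they carried summits. The former had a summit in 92 of 647 cases (14.2%, 11.7 to 17.1) and the latter in 51 of 358 (14.2%, 11.0 to 18.2), a difference of -0.0263 percentage points with an interval from -4.73 to 4.32. A further 43 pairs have both starts on the same strand, 32 of them spaced by up to 100 bp, and 6 had a summit. On the X chromosome, which the MSL complex acts on in flies, 2 of 33 start pairs had a summit (6.06%, 1.68 to 19.6), against 147 of 1015 on the autosomes (14.5%, 12.5 to 16.8).

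Summit positions were read against each gene's outermost annotated start. Of the 92 divergent pairs with a summit, 39 had it between the starts and 53 (57.6%) beyond one of them. Bysl with Gm20517 and Bysl with Med20 have the same starts and the same summit, which is counted for each pair here and below. At the 88 divergent pairs spaced by up to 500 bp, it was a median of 83.5 bp from the midpoint between the starts (quartiles 32.4 and 158), and 82 of the 88 lay within 250 bp of it. Among pairs spaced by up to 100 bp, 3 of 38 summits lay between the starts. The other 35 lay beyond one of them, inside the outermost bounds of a gene. From 101 to 250 bp 18 of 33 lay between the starts, and from 251 to 500 bp 14 of 17 did. A wider gap has more room, so this increase only describes position. A summit beyond an outermost start can still lie upstream of another start of that gene. At Trmt2a the summit lay 19 bp inside the outermost start, but the promoter window's start lies 36 bp inside it. Summits with 2 or more starts lay a median of 17.5 bp inside the gene with the nearest start (quartiles -69.5 and 112), and summits at the start of a single gene a median of 12 bp inside (quartiles -100 and 109).

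**Figure D2:**
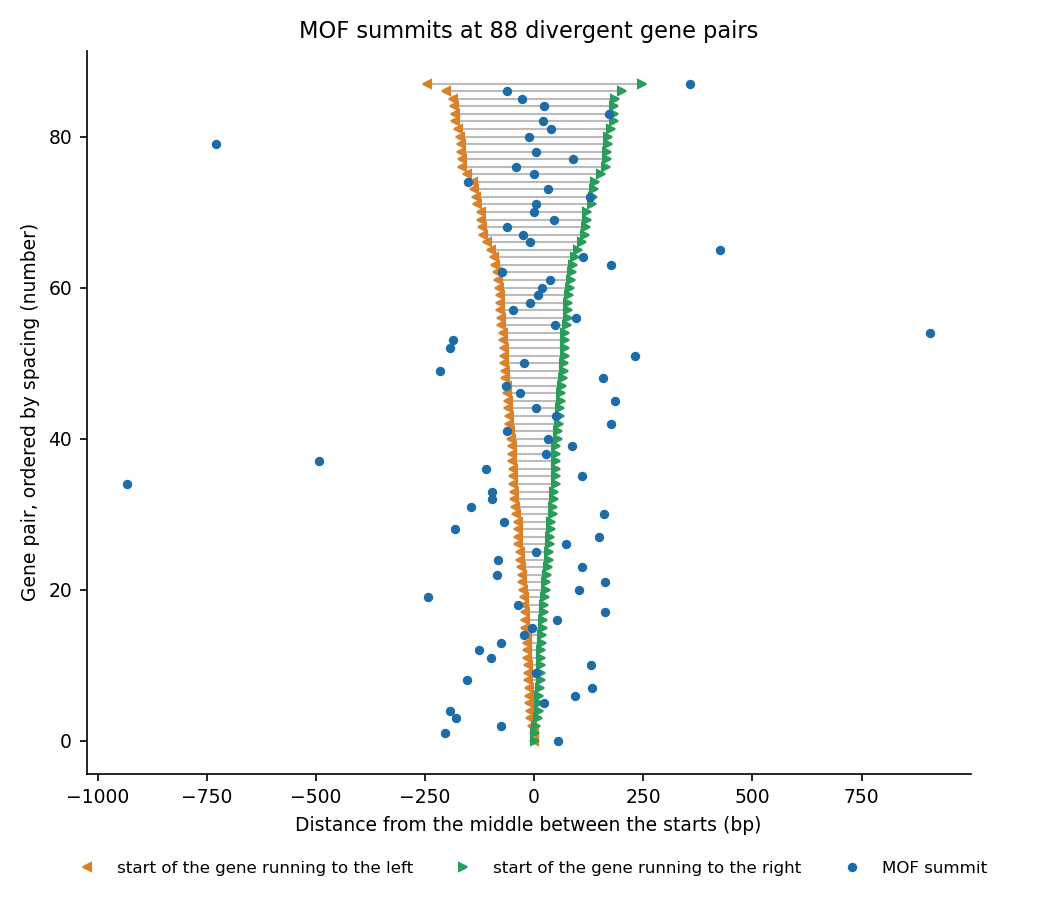
MOF summits (blue points) at the 88 divergent gene pairs spaced by up to 500 bp, each on its own row (vertical axis, ordered by spacing), against the distance from the middle between the starts in bp (horizontal axis); triangles mark the annotated start of each gene, and the gene runs in the direction the triangle points. Summits of closely spaced pairs lie to either side of the starts, those of widely spaced pairs mostly between them, and 82 lie within 250 bp of the middle.

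Starts with a close partner were then set beside starts alone, each read over the same 2001-bp window, with 1 start taken per divergent pair. At pairs spaced by up to 500 bp this window also holds the partner's start, so a summit that lies nearer to the partner counts too, while the window of an isolated start holds that start alone. At divergent pairs spaced by up to 500 bp, 79 of 497 plus-strand starts with a promoter window had a summit within 1 kb (15.9%, 12.9 to 19.4). At isolated starts, which have no other protein-coding gene boundary within 2 kb, the count was 627 of 12018 (5.22%, 4.83 to 5.63). The difference was 10.7 percentage points (7.70 to 14.2). Counting a summit for its nearest start only, which was chosen after the data were seen, left 42 of the 497 divergent starts (8.45%, 6.31 to 11.2) and a difference of 3.23 points (1.06 to 6.04). By nearest neighbour, 15.3% of starts next to another start had a summit (317 of 2073). The share was 7.31% for starts next to an end (71 of 971) and 4.79% for starts with no neighbour (664 of 13853). Here both starts of a pair were counted, so a summit can count for both, and these starts are not independent. For scale, 6.27% of all 17273 starts with known strand had a summit, and 0.562% of all gene ends.

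Divergent promoters are richer in CpG, so the comparison was repeated by CpG class. A window was called CpG-rich with an observed to expected ratio of at least 0.6 and at least 50% G and C. Among CpG-rich windows the share was 74 of 433 at divergent pairs (17.1%, 13.8 to 20.9) and 548 of 4915 at isolated starts (11.1%, 10.3 to 12.1), a difference of 5.94 percentage points (2.56 to 9.86). Among the other windows it was 5 of 64 (7.81%, 3.38 to 17) and 79 of 7103 (1.11%, 0.893 to 1.38), a difference of 6.70 (2.26 to 15.9). With each summit counted for its nearest start only, the CpG-rich share was 38 of 433 (8.78%, 6.46 to 11.8) at divergent pairs, and the difference turned to -2.37 percentage points (-4.86 to 0.783). Among the other windows it was 4 of 64 (6.25%) and the difference 5.14 points (1.34 to 13.9). Per start, then, CpG-rich divergent promoters were not shown to carry MOF more often than CpG-rich isolated ones. By nearest neighbour among CpG-rich windows, starts next to a start exceeded starts next to an end by 4.11 points (interval -0.179 to 7.84). Starts next to an end exceeded starts with no neighbour by 2.61 points (interval -0.633 to 6.54), so both intervals include 0. The first interval takes both starts of a pair as independent, which they are not. 

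**Figure D3:**
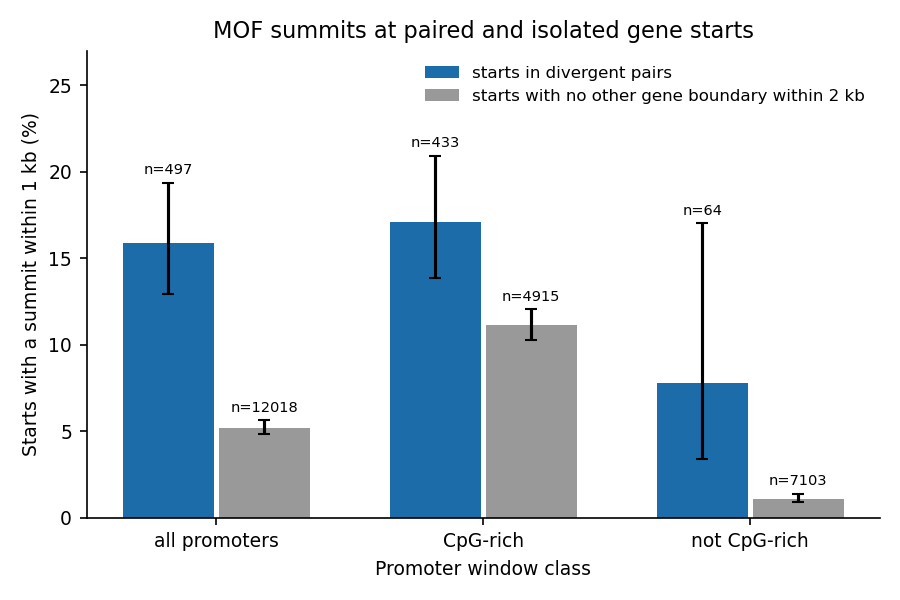
Share of gene starts with a wild-type HSC MOF summit within 1 kb (vertical axis, percent) at divergent pairs spaced by up to 500 bp (blue, 1 start per pair) and at isolated starts (grey), for all promoter windows and by CpG class (horizontal axis), with 95% Wilson intervals and the number of starts above each bar. The blue bar is the taller in each class, at 17.1% against 11.1% among CpG-rich windows, where the order turns (8.78% against 11.1%) once a summit counts only for its nearest start.

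Short sequence motifs were then counted in the 300-base windows of the plus-strand gene at divergent pairs, on both strands. They were GGGCGG (the GC box bound by Sp1-type factors), CCAAT (the NF-Y box), CCGGAA (the core of ETS factor sites), CACGTG (the E-box), TATAAA (the TATA box), TGACGT (the core of the cyclic AMP response element, CRE) and GCATGC (the core of NRF1 sites). None of these motifs contains another, though matches may overlap. With a summit, 59 of 79 windows held a GC box (74.7%), 38 an ETS core (48.1%), 25 a CCAAT box (31.6%), 23 a CRE core (29.1%), 12 an E-box (15.2%), 7 a TATA motif (8.86%) and 6 an NRF1 core (7.59%). Over all 14918 promoter windows of protein-coding genes, 47.0% held a GC box, 19.4% an ETS core, 40.1% a CCAAT box, 9.0% a CRE core, 8.17% an E-box, 14.0% a TATA motif and 8.48% an NRF1 core.

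Divergent windows without a summit resembled those with one in GC boxes, at 292 of 418 (69.9%), and in ETS cores, at 186 (44.5%). The intervals of both differences included 0, at -6.55 to 14.3 and -8.09 to 15.4 percentage points. A pair of motifs differed beyond counting error. The CRE core was in 64 of the 418 windows without a summit (15.3%), 13.8 percentage points less often than with one (interval 4.17 to 25). The CCAAT box was in 192 of them (45.9%), and thus 14.3 points more often (interval of the difference, with minus without a summit, -24.7 to -2.41). Both differences were of like size among CpG-rich windows, at 14.4 (4.34 to 26.1) and -15.4 (-25.7 to -3.13). In these windows the TATA motif was also more frequent with a summit, with 5 of 74 against 8 of 359 (difference 4.53, 0.152 to 12.7). Isolated starts showed a CRE difference of like direction, at 18% of windows with a summit and 7.41% of those without (difference 10.6, 7.76 to 13.8). The CCAAT difference there was -3.52 (-7.30 to 0.426), which includes 0. The TATA difference was reversed, at -9.55 (-11.4 to -7.22). These windows were not matched for CpG, as 87.4% with a summit and 38.3% without were CpG-rich. GC boxes (33.2 points), ETS cores (21.2), E-boxes (6.79) and NRF1 cores (3.40) were also more frequent with a summit there, so the CRE core was not alone. Against isolated starts with a summit, divergent ones held an ETS core 12.2 points more often (0.878 to 23.7) and a CRE core 11.1 points more often (1.67 to 22.3). The intervals are not adjusted for the 7 motifs, and a match is only a match of letters.

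The highest deposited value of any adjacent-gene summit was 22.6, at position 127924846 of chromosome 7. This −log10 value is the authors' own and ranks peaks within a list. The summit lay 992 bp from the end of Kat8, the MOF gene itself, and 871 bp from a boundary of Prss8, a membrane-bound serine protease, so it is also one of those nearest to the 1 kb limit. It was the only adjacent-gene summit found in 4 of the 5 lists, GATA1 in HPC7 among them. Next came Ewsr1, an RNA-binding protein of the FET family, with Rhbdd3 (20.6, chromosome 11, 5099223). The summit there lay 116 bp from the Ewsr1 start and 941 bp from the Rhbdd3 start. The spliceosome factor gene Cwc25 and the lipid kinase gene Pip4k2b followed with 18.1 (chromosome 11, 97745029). That summit lay 441 bp from the end of Cwc25 and 325 bp from a boundary of Pip4k2b. A summit of 17.7 lay between boundaries of the chromatin remodelling factor Rsf1 and of Aamdc, 151 and 162 bp away (chromosome 7, 97579719).

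Trmt2a, a tRNA methyltransferase, and Ranbp1, a regulator of the GTPase Ran, shared a summit of 17.4, which lay 19 bp from the Trmt2a start and 172 bp from the Ranbp1 start. Adprhl2, which removes ADP-ribose from proteins, starts next to the end of the cilia gene Tekt2, and the summit of 15.6 lay 57 bp from that start. The summit of St13, a cochaperone of Hsp70, with the mitochondrial peptidase gene Xpnpep3 had a value of 15.2 and lay 204 and 207 bp from their boundaries. Symplekin (Sympk), which acts in the 3′ processing of RNA, and the liver transcription factor gene Foxa3 shared a summit of 14.6, which lay 135 bp from Sympk and 703 bp from Foxa3. Fam219a shared a summit of 14.2 with Dnaic1, a dynein chain of motile cilia, 14 and 26 bp from their starts. A peak at a shared promoter does not say which of the genes is transcribed.

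The 15 highest also held these loci. Ctdspl2 with Mageb3 had a value of 13.8, Fdxacb1 with 1110032A03Rik 13.3, and the spliceosome factor gene Bud31 with Pdap1 13. Gtf2h1, a subunit of the general transcription factor TFIIH, with the organelle trafficking gene Hps5 had 12.9, and so had the H3K4 demethylase gene Kdm1b with Tpmt, where the summit lay 5 bp from the Tpmt start. The end of Daxx, a chaperone of histone H3.3, lies 586 bp from the start of Zbtb22, where the value was 13 and the summit was nearer to the Zbtb22 start (193 bp).

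Over all 229 summits the value ran from 1.37 to 22.6 with a median of 5.37 (95% interval of the median 4.93 to 5.83, quartiles 3.84 and 7.49). Single-gene summits had a median of 5.22 (4.99 to 5.38) and summits at no gene boundary 5.29 (4.97 to 5.50), so the medians of the 3 classes did not separate. The highest values did differ, at 22.6 for adjacent genes, 44.8 for single genes and 57.1 for no gene boundary. Of the 100 highest summits in the list 15 were at adjacent genes, 37 at single genes and 48 at no gene boundary, where adjacent-gene summits are 12.4% of the list. The median was 5.29 with 2 or more starts within reach and 5.28 with 1 start, so the medians did not separate by arrangement either.

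Summits with 3 genes in reach were at Tomm6, Prickle4 and Frs3 (8.48), Bysl, Gm20517 and Med20 (7.32), Gpaa1, Oplah and Exosc4 (4.93), and Prdx5, Trmt112 and Esrra (1.80). Bysl acts in ribosome assembly, Med20 in the Mediator complex, Exosc4 in the RNA exosome and Tomm6 in mitochondrial protein import. Just inside the 1 kb limit, with the second gene 979 to 992 bp away, were Polr1d with Lnx2 (1.89), Wrap53 with Trp53 (6.70), Faap100 with Nploc4 (7.94) and the Kat8 summit. Just outside it, at 1013 to 1071 bp, were Slc33a1 with Gmps (5.58), C1qbp with Dhx33 (4.93), Cactin with Pip5k1c (4.94) and Rbm18 with Mrrf (3.90). The second gene was a median of 255 bp away over all 229 summits, and more than 750 bp away in 25.

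Gene lists were drawn up by gene symbol, so they can miss genes of their kind, and the counts below are of listed genes. They were read against all protein-coding genes, of which 2.07% lay at an adjacent-gene summit (447 of 21627). They were also read against the 7047 genes in any close pair, of which 6.34% did. A gene counted whether its start or its end was in reach. For scale, 6.22% of all protein-coding genes had any HSC summit within 1 kb of a boundary. That share was 26.6% for splicing and hnRNP genes, 22% for histone genes and 28.2% for ribosomal protein genes of the cytosol, so these lists were high at HSC summits of any kind and not shown to be high at adjacent genes in particular. Splicing and hnRNP genes, whose products cut introns out of RNA and package it, had 10 of 109 genes at such a summit (9.17%), or 17.5% of the 57 in close pairs (9.82 to 29.4). In this list the highest after Cwc25 were Hnrnph3, which faces Pbld2 (8.30), Srsf7, which faces the SMN complex gene Gemin6 (8.02), Srsf2 with Mfsd11 (6.64) and Lsm3, which lies next to the DNA repair gene Xpc (6.14). Bud31, named above with a value of 13, is not in the list. The values of the 10 ran from 3.18 to 18.1. The Srsf7 summit lay 148 bp from the nearer of the starts, which are 135 bp apart.

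Histone genes, most of which lie in clusters, had 11 of 100 at an adjacent-gene summit (11%), and 55 of the 100 are in close pairs, so that their share among those was 11 of 55 (interval 11.6 to 32.4%). These genes share summits, so they are not independent. The highest was at H2ac6 and H2bc4 (8.24, chromosome 13, 23683947), 12 bp from the H2ac6 start. Then came H2ac24 with H4bc24 (7.88), H4c18 with H2ac24 (7.74) and H3c14 with H2ac18 (5.70). H4bc24 is not in the list and is not counted among the 11. H2aw, which is, lay with Trim17 at a summit of 3.84. H2ac8 and H2bc8, which start 180 bp apart on opposite strands, shared a summit of 3.33. H4c1 and H3c1 had 2 summits, with values of 3.58 and 1.44. Pairs of 2 genes of the same list were otherwise found only among zinc finger genes, with Zfp398 and Zfp786 (8.55) and Zfp942 and Zfp943 (5.29).

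Ribosomal protein genes of the cytosol had 5 of 85 (5.88%), each beside a gene of another kind. These were Rps28 facing Ndufa7, a subunit of respiratory complex I, across 10 bp (5.80), Rplp2 facing Pidd1 (5.24), Rps27a with Clhc1 (4.48), Rpl9 facing the lipoic acid synthase gene Lias (3.51) and Rpl7a facing the Mediator gene Med22 (3.00). Mitochondrial ribosomal protein genes had 4 of 80 (5.0%), with Mrps18b facing Ppp1r10 (5.57) highest and Mrps5 facing Zfp661 (1.37) lowest. Genes of oxidative phosphorylation had 4 of 89 (4.49%), among them Atp5a1 with Haus1 (5.39) and Uqcrh facing Lrrc41 (4.58). In close pairs the shares were 11.6% of 43, 7.69% of 52 and 7.27% of 55, with intervals that include the 6.34% of all genes in close pairs.

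Chromatin genes had 5 of 146 (3.42%). Below Kat8, Rsf1 and Kdm1b came Kmt2d, an H3K4 methyltransferase, beside Prkag1 (2.64) and Smarcd2 facing Tcam1 (1.58). Kmt2d was reached at its end, 149 bp away, and the summit lay 12 bp from the Prkag1 start. Kat8 too was reached at its end. Genes of DNA repair and replication had 4 of 121 (3.31%), namely Fancb with Mospd2 (7.03), Xpc with Lsm3 (6.14), the checkpoint kinase gene Atr (3.76) and Pcna facing Cds2 (2.76). Of these repair and replication genes 38 are in a start pair. Translation factor and tRNA synthetase genes had 2 of 94, Eif2b4 facing Snx17 (5.79) and Gspt1 (4.83). Zinc finger genes had 9 of 461 (1.95%). Of the 12 genes of MOF complexes only Kat8 was at an adjacent-gene summit.

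Several lists had no gene at an adjacent-gene summit. These were the proteasome genes (0 of 51, of which 27 are in close pairs), olfactory receptor genes (0 of 1110, 19 in close pairs) and the lists of stem cell, erythroid, megakaryocyte, myeloid, lymphoid, mast cell and basophil, and stromal and endothelial genes. The stem cell list has 6 of its 30 genes in close pairs and the erythroid list 13 of 45, so these counts rest on few genes.

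Next, the adjacent-gene summits were sought in wild-type MEP. With each summit widened by 150 bp on both sides, 37 of 229 overlapped a MEP summit (16.2%, 12 to 21.5), against 14.1% of all 1850 HSC summits. Widened by 50 bp, 18 did (7.86%), and by 500 bp, 46 did (20.1%). With 150 bp the share was 13.2% at single genes (121 of 916, 11.2 to 15.6) and 14.6% at no gene boundary (103 of 705). The difference to single genes was 2.95 percentage points with an interval from -1.87 to 8.64, so no difference was detectable. The overlapping summits were a median of 104 bp apart, and 15 of the 37 lay within 50 bp of each other.

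The shared summits with the highest HSC values were those of Kat8 with Prss8 (value 135 in MEP), Ewsr1 with Rhbdd3 (6.32 in MEP), Trmt2a with Ranbp1 (6.13), Adprhl2 with Tekt2 (5.08) and Zbtb22 with Daxx (4.77). They continued with Bbip1 and Shoc2 (6.60), Odr4 and the nuclear pore gene Tpr (5.51), Aasdhppt and Kbtbd3 (2.46), Hnrnph3 and Pbld2 (6.80) and H2ac6 with H2bc4 (5.38). The MEP and HSC summits of Ewsr1 lay 7 bp apart, and those of Adprhl2 11 bp. Others had a larger printed value in MEP, such as Cep95 with Ddx5, an RNA helicase gene (4.74 in HSC and 12.6 in MEP). H4c1 with H3c1 was another (1.44 and 6.52). Each of these loci also holds a higher HSC summit that overlapped no MEP summit, with values of 6.61 and 3.58. Values of different lists are not on one scale, so these are given side by side only. Of the 8 adjacent-gene summits at listed histone genes 6 were also called in MEP, with H4c18 and H2ac24 highest there (13.7). Several of these summits share genes, so they are not independent, and histone summits at single genes were not compared. Among other lists it was 3 of 10 for splicing and hnRNP genes, 1 of 7 for zinc finger genes and 1 of 5 for cytosolic ribosomal protein genes. It was 1 of 5 for chromatin genes, 0 of 4 for DNA repair and replication and 1 of 1, Kat8, for MOF complexes. With the HSC list split by value into 3 classes of about equal size, 25.3% of the adjacent-gene summits in the highest class were shared with MEP (19 of 75, 16.9 to 36.2), 10.7% in the middle class (9 of 84, 5.74 to 19.1) and 12.9% in the lowest (9 of 70, 6.91 to 22.7). In the highest class the share was 23.6% at no gene boundary (55 of 233) and 16.6% at single genes (51 of 308).

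**Figure D4:**
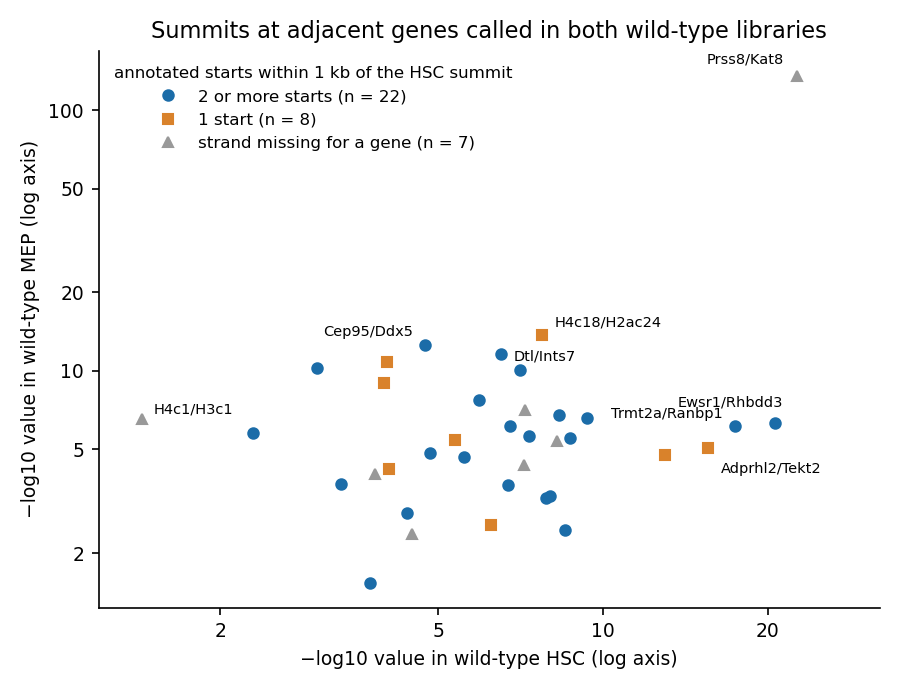
The authors' −log10 value of the 37 adjacent-gene summits called in both wild-type libraries, in HSC (horizontal log axis) and in MEP (vertical log axis), by the number of annotated starts within 1 kb of the HSC summit. The summit at Kat8 and Prss8 stands apart at 22.6 in HSC and 135 in MEP, and the others lie between 1.54 and 13.7 in MEP.

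By gene pair, start pairs had the largest share in MEP too. There 59 of 1048 start pairs had a MEP summit within 1 kb of both genes (5.63%, 4.39 to 7.19), 21 of 975 start-end pairs (2.15%) and 1 of 1105 end pairs (0.0905%), against 2.29% of all 4809 pairs. In both lists were 28 start pairs, which are 18.8% of the 149 in HSC and 47.5% of the 59 in MEP. Of the start pairs with an HSC summit 18.8% (13.3 to 25.8) had a MEP summit, and of the 899 without one 3.45% (2.44 to 4.85) did.

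Only 4 of the 229 summits overlapped a MOF interval of HSC from the Mof -/+ mice (1.75%, 0.681 to 4.40), against 4.05% of all HSC summits. They were Adprhl2 with Tekt2 (heterozygous interval 126321652 to 126321857 on chromosome 4, 6.74-fold enrichment, −log10 q 7.56), Kdm1b with Tpmt (47043287 to 47043532 on chromosome 13, 7.28-fold, 7.66), Bbip1 with Shoc2 (53944387 to 53944636 on chromosome 19, 5.26-fold, 3.55) and 9030025P20Rik with Gm3417 (14978601 to 14978888 on chromosome 17, 4.99-fold, 2.92). All 4 had HSC values above the median, from 9.18 to 15.6. At single genes the share was 2.51% (23 of 916), and the interval of the difference, -2.39 to 2.02 percentage points, includes 0. At no gene boundary it was 6.81% (48 of 705), and the difference, adjacent-gene minus no boundary, was -5.06 percentage points (-7.42 to -1.94). The heterozygous list is shorter and its depth is unknown, so a summit that is missing from it is not shown to be lost.

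Among all close pairs the heterozygous HSC list reached 12 (0.250%), of which 5 also had a wild-type summit. Of the 7 others, Atp6v1d and the translation factor gene Eif2s1 start 64 bp apart on opposite strands, and pairs of H2bc9 with H3c7 and of H3c15 with H2ac19 are histone genes. Of the adjacent-gene summits 1 overlapped the heterozygous MEP list, against 0.865% of all HSC summits. That list reached 1 pair (0.0208%), Kat8 with Prss8 (127924323 to 127925321 on chromosome 7, 6.56-fold, −log10 q 58.5). The GATA1 list of HPC7 reached 7 pairs (0.146%), 0 of them a start pair and 1 of them, again Kat8 with Prss8, with an HSC summit. Of the adjacent-gene summits 1 (0.437%, 0.0771 to 2.43) overlapped a GATA1 interval, against 1.84% of all HSC summits and 4.40% (31 of 705) of those at no gene boundary. The difference to the latter was -3.96 percentage points (-5.77 to -1.59). In none of the other 4 lists was a counterpart found for 190 of the 229 adjacent-gene summits and for 781 of the 916 single-gene summits. Most summits of either class thus had no counterpart, and this is not particular to adjacent genes.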

How the data were processed

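MOF and GATA1 ChIP-seq peak lists of 5 of the 12 samples were used, and the other 7 samples were not analysed here. The submitters' processing notes name MACS2, deepTools, Bowtie2 2.3.0.1 and the build mm10, with settings and peak background not given in the sources used here. The deposited wild-type lists give each peak as a 1-bp summit with a −log10 value, read as a −log10 q because its minimum of 1.31 lies just above the 1.30 of a threshold of 0.05. The deposited heterozygous lists hold, for each interval, a −log10 q, a −log10 p and a fold enrichment from the authors, and the deposited GATA1 list gives interval bounds and no other measurement. Read depth is unknown.

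Gene starts and ends came from RefSeq (GRCm38.p6, 21627 protein-coding genes on chromosomes 1 to 19 and X). Strand and promoter sequence came from RefSeq promoter windows, which matched 17273 of these genes and 395 of the 447 described. A pair was classed by its nearest boundaries. Each gene's outermost annotated boundaries were used. Promoter windows were used where they lay within 500 bp of the outermost start (14918 genes). Summits were widened to 301 bp for overlaps of at least 1 bp, and positions are 1-based. The limit given for a count of 0 is 3 counts of the total.

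Named loci were the 15 highest by value, those nearest the 1 kb limit, those with 3 genes, those in other lists, and the highest of each of 19 gene lists. The members and lists were chosen with earlier results of these data known. Pair and summit assignment and the intervals were tested on simulated data. Python 3.11.15, pandas 2.3.3 and scipy 1.17.1 were used.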

Additional observations from a re-analysis of the deposited data

How the results depend on the processing

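The order of start, start-end and end pairs held under every alternative computed, namely a window of 500 bp or 2 kb with the allowed spacing scaled to it, pairs spaced up to 1 kb, summits above the list median, no summits in the GATA1 list, no Gm, Rik or LOC models, chains of pairs counted once, and no histone genes. The alternatives for the separate arrangements, the count from promoter-table starts, the count by nearest start and the motif counts among CpG-rich windows were added after the data were seen. Taking only summits above the list median lowered the share of pairs with a summit to 2.50% over all pairs, 7.44% for start pairs, 2.05% for start-end pairs and 0% for end pairs, and left 117 adjacent-gene summits, since fewer summits enter. Pairs spaced up to 1 kb gave 6.33% over all pairs and 6.75% for start-end pairs, and chains counted once gave 7.75%. A window of 500 bp with pairs spaced up to 1 kb put end pairs at 0% (0 of 770), and one of 2 kb with pairs spaced up to 4 kb at 1.32%. Counting a summit for its nearest start only, the divergent minus isolated difference was 3.23 percentage points over all windows and -2.37 among CpG-rich windows, where it changed sign. Counting only starts in the promoter table, and no ends, left 146 summits at 2 or more genes. The share also called in MEP was 7.86% with summits widened by 50 bp. Of the alternative values 38 stayed within the counting interval or, for counts, within 1.5 times. Another 13 moved outside these bounds, and 1 changed sign. No paired analysis was possible because each group is 1 library. Unknown depth limits every statement about a summit that was not called.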
